A study of Mus musculus with 24 samples.

Results

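Expression of the genes that make cholesterol and fatty acids was followed in the 2 tissues of the developing mouse lens. The set holds 33 genes: 18 enzymes of sterol synthesis, 5 regulators and 10 enzymes of fatty acid synthesis. They were chosen by symbol from knowledge of these pathways, with no rule on their values but with earlier results of these data known. All 33 were found among the 12611 gene rows of the deposited table. Each of them also passed the filter on low counts, which left 12427 genes to test.

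The libraries hold total RNA of lens epithelium or of lens fiber cells dissected from CD1 mice, an outbred stock. The embryonic stages were E14.5, E16.5 and E18.5, counted in days, and the fourth stage, P0.5, followed birth by 0.5 days. Each tissue had 3 biological replicates at each stage, which gave 8 groups and 24 libraries. The labels name no genotype, treatment or sex for any group, and no source used here says whether a replicate pools lenses of several animals.

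Lens epithelium is the dividing layer at the front of the lens, and fiber cells arise from it, elongate and fill with crystallins. Cholesterol is built from acetyl-CoA through mevalonate, squalene and lanosterol, while fatty acids are built from the same acetyl-CoA by Acaca and Fasn and are then lengthened by Elovl enzymes and desaturated by Scd and Fads enzymes. Transcription of both arms is driven by the factors encoded by Srebf1 and Srebf2, which Scap escorts out of the endoplasmic reticulum and the Insig proteins hold back when sterols are plentiful. Fiber plasma membranes are known for an unusually high cholesterol content, and inherited defects in sterol enzymes such as Lss cause cataract.

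The total count was 7658794 to 11819117 in the epithelium libraries and 13010174 to 21617737 in the fiber libraries. Replicates differed by more than sampling noise. Tissue labels matched their defining markers: Cdh1 stood at 389 to 581 CPM (counts per megaread of the scaled library size) in epithelium and 12.3 to 32.9 CPM in fiber, and Mip at 269.5 to 587 CPM in epithelium and 13519 to 21364 CPM in fiber. Epithelium libraries also held RNA of neighbouring cell types. The summed level of 8 of 8 endothelial markers was 236 to 441 CPM in epithelium and 10.6 to 37.6 CPM in fiber, and that of 6 of 6 mural cell markers was 258 to 496 CPM against 27.5 to 57.1 CPM. Their part in the differences between tissues was not tested. The library of replicate 2 of E18.5 fiber stood apart, with 28.9% of its counts on the ribosomal RNA locus Rn45s. Without that library the counts of members called at E18.5 and averaged over stages were the same as with it.

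Most sterol enzymes had higher levels in fiber than in epithelium on the scale that holds the bulk of genes equal between libraries (TMM scaling). Averaged over stages, 10 of the 18 passed the test as higher in fiber (adjusted p under 0.05 and at least 2-fold, edgeR quasi-likelihood fit) and 0 as lower. Of all genes tested, 15.7% were called higher and 22.2% lower. The median of the 18 was a log2 difference of 1.08, against -0.03 over all genes tested. These values depend on scaling: with library size alone the sterol median was -0.13 and that of all genes was -1.23. With library size without crystallins and Rn45s these medians were 0.47 and -0.63. Crystallins took 23.3% to 43.9% of the counts of fiber libraries and 1.66% to 4.28% of those of epithelium. Relative to the median of all genes the sterol median was higher by 1.11 with TMM or library size alone. Without crystallins and Rn45s it was higher by 1.10. Scaling moves all genes by nearly the same amount, so these values are not separate support. In these bulk samples, a different share of cells of a type and a different amount of RNA per cell cannot be told apart.

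**Figure D1:**
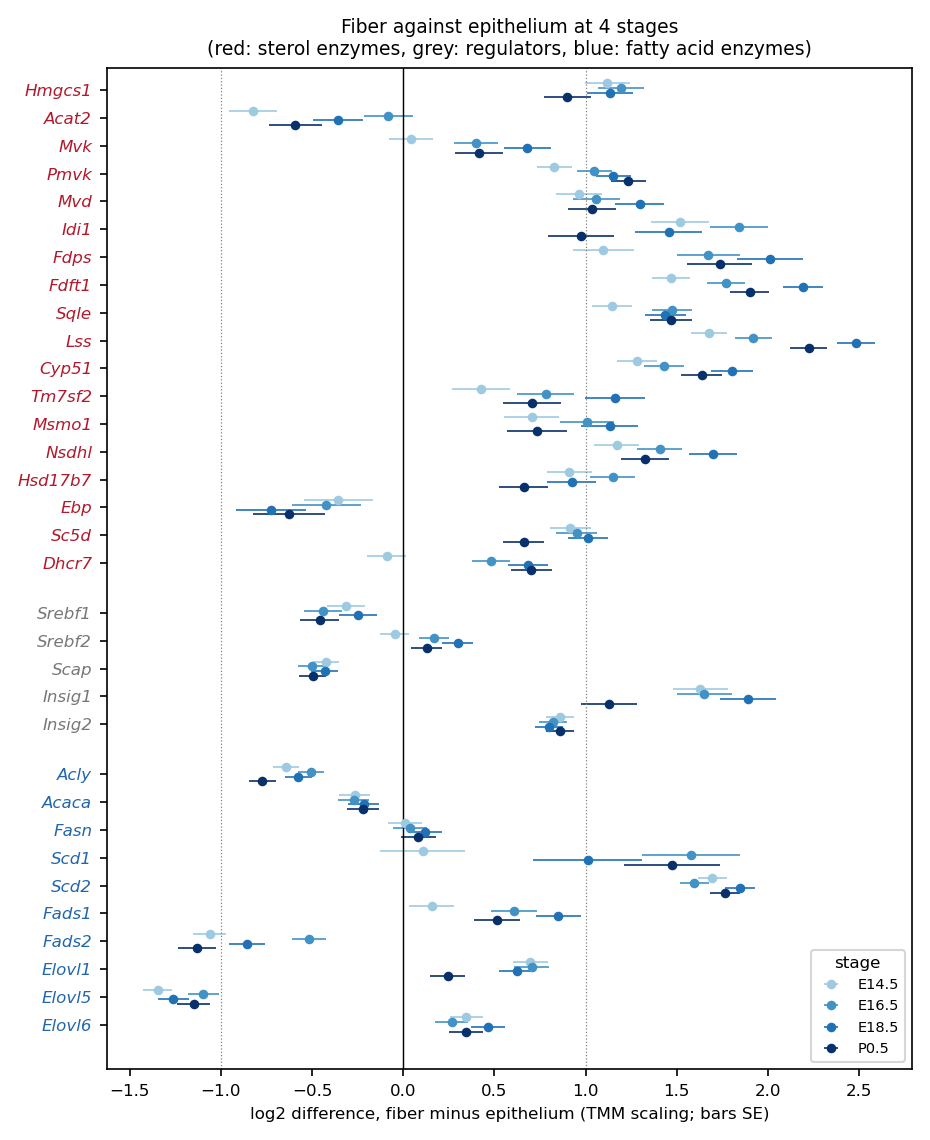
Log2 difference between fiber and epithelium (x axis, TMM scaling, bars 1 SE, 3 against 3 libraries) for each of the 33 members at 4 stages, with darker points for later stages and dotted lines at 2-fold. On this scale the sterol enzymes lie mostly to the right, with Lss reaching 2.49 at E18.5, whereas the fatty acid enzymes spread from Elovl5 at -1.35 to Scd2 at 1.85.

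The 3 enzymes between farnesyl diphosphate and lanosterol were all called higher in fiber, against 15.7% of all genes. Lss, which folds squalene epoxide into lanosterol (GRCm38, chr10:76531588-76557138), had the largest difference of the members. In epithelium its level was 31.0, 29.9 and 32.9 CPM (E14.5), 27.7, 33.7 and 26.9 (E16.5), 22.1, 20.8 and 25.1 (E18.5), then 23.9, 22.7 and 30.5 (P0.5). In fiber its level was 95.6, 103 and 102 CPM (E14.5), 103, 122 and 111 (E16.5), 142, 117 and 122 (E18.5), then 123, 121 and 118 (P0.5). Every fiber library lay above every epithelium library, with no overlap at any stage. The log2 difference averaged 2.08 (SE 0.051, adjusted p = 1.08e-21), or 4.22-fold, and was higher than that of 94.8% of genes tested. Fdft1, squalene synthase (chr14:63145150-63179578), was at 38.5, 30.8 and 39.8 CPM (E14.5), 33.4, 38.2 and 32.0 (E16.5), 24.5, 24.6 and 26.4 (E18.5), then 23.97, 27.3 and 32.99 (P0.5) in epithelium. Its fiber levels were 98.8, 103 and 100.3 CPM (E14.5), 119, 120.2 and 115 (E16.5), 129.7, 109 and 106 (E18.5), then 114, 109 and 92.6 (P0.5). Again no fiber library came down to the epithelium range, and the averaged log2 difference was 1.83 (SE 0.054, adjusted p = 3.81e-20). Exons of Fdft1 overlap those of Ctsb on the other strand over 18.3% of their length, and no source used here gives the strand setting with which reads were counted. Sqle, squalene epoxidase, ranged over 30.3 to 59.4 CPM (median 48.4) in epithelium and 95.6 to 148 CPM (median 122) in fiber, a log2 difference of 1.38 (SE 0.056).

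Of the 7 enzymes that lead up to farnesyl diphosphate 5 were called higher in fiber, against 15.7% of all genes. Fdps, farnesyl diphosphate synthase, stood at 12.4, 11.0 and 11.8 CPM in E14.5 epithelium and 23.0, 24.8 and 27.6 CPM in E14.5 fiber. Its gap was wider at E18.5, with 7.18, 7.56 and 6.21 CPM in epithelium and 34.5, 22.7 and 26.6 CPM in fiber. The averaged log2 difference was 1.63 (SE 0.087), but 91.4% of the Fdps transcript is at least 98% identical to other annotated genes (Gm3571 and Gm43738), so its counts are uncertain. Idi1, isopentenyl diphosphate isomerase, was low, with 2.59 to 5.41 CPM in epithelium and 5.43 to 15.8 CPM in fiber, and differed by 1.45 (SE 0.085). Such identity covered 33.3% of the Idi1 transcript. Hmgcs1, which makes the direct precursor of mevalonate, was the most abundant sterol member per length of transcript, with a mean of 30.5 CPM per kb in epithelium and 65.8 CPM per kb in fiber. Its averaged log2 difference was 1.09 (SE 0.063), close to those of Mvd (1.09) and Pmvk (1.07), which act on mevalonate phosphates. These 3 lay just above 2-fold, and with library size alone their differences turned to -0.12, -0.11 and -0.14. Mvk, mevalonate kinase, differed by 0.38, and Acat2, the thiolase that begins the pathway, by -0.46, neither reaching 2-fold. On library size alone, where the median of all genes was -1.23, Mvk was at -0.82 and Acat2, at -1.67, was called lower.

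Among the 8 enzymes that turn lanosterol into cholesterol 2 were called higher in fiber, not far from the 15.7% of all genes. Cyp51, lanosterol demethylase, stood at 37.4 to 81.1 CPM (median 66.9) in epithelium and 145 to 221 CPM (median 187) in fiber, with a log2 difference of 1.54 (SE 0.056, adjusted p = 3.53e-18). Nsdhl, a sterol decarboxylase, stood at 13.6 to 25.2 CPM (median 18.9) and 40.1 to 61.4 CPM (median 47.4), with a log2 difference of 1.40 (SE 0.064). For both genes the 12 fiber libraries lay above the 12 epithelium libraries. Hsd17b7 (0.91), Msmo1 (0.89), Sc5d (0.89) and Tm7sf2 (0.77) were below 2-fold on average, although each passed the test at 1 stage or more, and each was below 0 with library size alone. Ebp, the sterol isomerase, was the other exception beside Acat2, with 4.97 to 9.09 CPM (median 6.997) in epithelium and 4.12 to 6.65 CPM (median 4.66) in fiber and a log2 difference of -0.53 (SE 0.096). The ratio of Lss to Ebp counts, which no scaling of libraries moves, was 2.29 to 6.01 in the epithelium libraries and 15.5 to 29.1 in the fiber libraries.

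By stage, the sterol enzymes called higher in fiber numbered 8 (E14.5), 12 (E16.5), 13 (E18.5), then 8 (P0.5), and those called lower numbered 0 each time. On library size alone 0, 0, 1 and 0 were called higher and 2, 2, 2 and 3 lower. Of the 12427 genes tested, that scaling called 751, 632, 537 and 526 higher and 5147, 6733, 8557 and 8439 lower. With TMM the shares of all genes called higher were 14.0%, 14.6%, 17.4% and 17.5% in that order. The shares called lower with TMM were 19.4%, 20.4%, 24.2% and 24.5%. With no fold minimum, 16 sterol enzymes were higher and 2 (Acat2 and Ebp) lower in the averaged comparison, where 44.0% of all genes were higher and 46.4% lower.

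**Figure D2:**
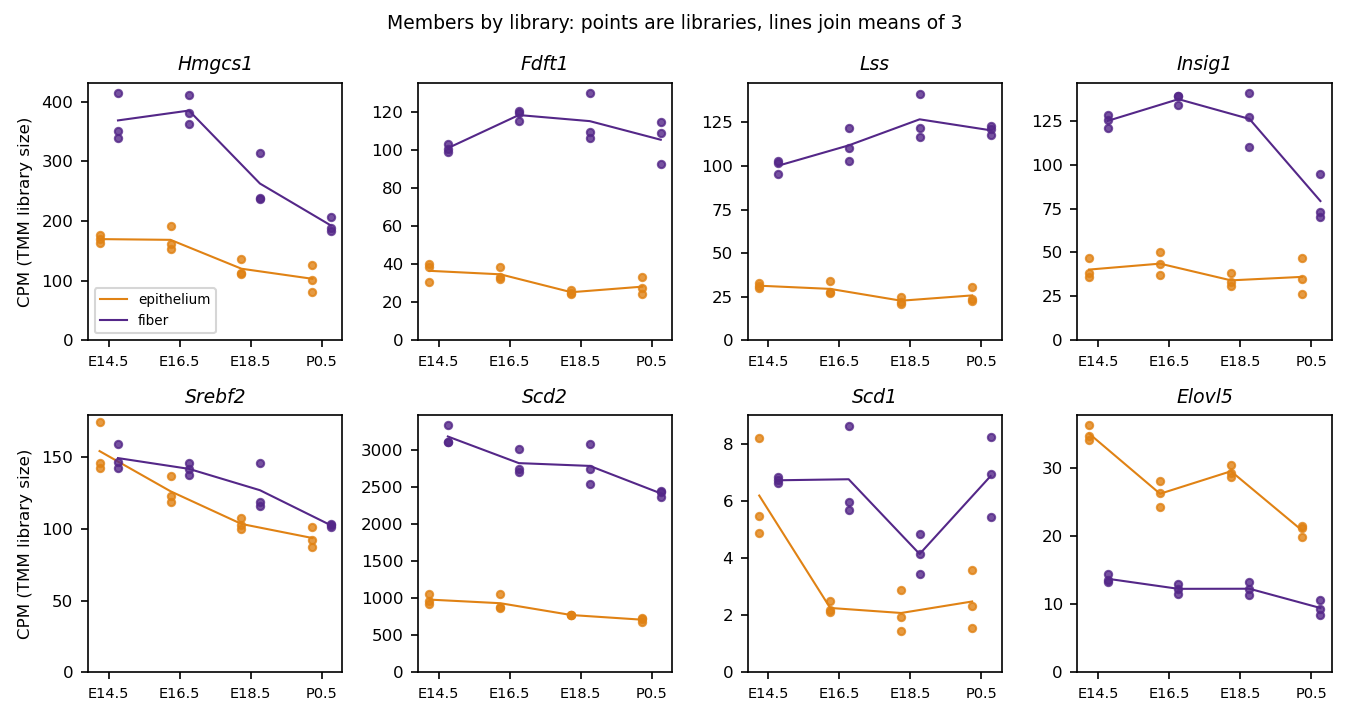
Level of 8 members in each library (y axis, CPM on the TMM library size, starting at 0) by stage, with orange for epithelium and purple for fiber, points for libraries and lines joining means of 3. Fiber libraries stand above epithelium libraries for Lss, Fdft1, Insig1 and Scd2 and below them for Elovl5, while Srebf2 levels overlap and Scd1 falls in epithelium after E14.5.

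For sequence context, the bases before the start site of 4 members were read from RefSeq's promoter table (GRCm38.p6, plus strand): the most abundant sterol member, the sterol member and the regulator with the largest difference, and the fatty acid enzyme called lower in fiber. Capitals mark the CCAAT box, here always in its reverse form ATTGG, and the sterol regulatory element TCACNCCAC.
Hmgcs1, chr13:119690101-119690350: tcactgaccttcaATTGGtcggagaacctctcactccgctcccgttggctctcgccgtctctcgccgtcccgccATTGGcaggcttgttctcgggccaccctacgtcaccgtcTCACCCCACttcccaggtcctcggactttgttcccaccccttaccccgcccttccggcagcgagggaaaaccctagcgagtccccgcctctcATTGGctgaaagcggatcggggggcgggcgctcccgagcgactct
Lss, chr10:76531355-76531587: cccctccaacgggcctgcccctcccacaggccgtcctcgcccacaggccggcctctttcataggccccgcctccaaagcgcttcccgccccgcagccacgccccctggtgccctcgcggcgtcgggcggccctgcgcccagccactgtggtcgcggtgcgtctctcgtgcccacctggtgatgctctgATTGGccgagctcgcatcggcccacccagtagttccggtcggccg
Insig1, chr5:28071162-28071362: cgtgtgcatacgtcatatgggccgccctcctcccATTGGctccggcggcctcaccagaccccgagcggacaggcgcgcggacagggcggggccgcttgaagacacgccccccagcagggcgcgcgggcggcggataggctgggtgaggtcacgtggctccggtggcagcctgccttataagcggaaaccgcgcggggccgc
Elovl5, chr9:77917115-77917363: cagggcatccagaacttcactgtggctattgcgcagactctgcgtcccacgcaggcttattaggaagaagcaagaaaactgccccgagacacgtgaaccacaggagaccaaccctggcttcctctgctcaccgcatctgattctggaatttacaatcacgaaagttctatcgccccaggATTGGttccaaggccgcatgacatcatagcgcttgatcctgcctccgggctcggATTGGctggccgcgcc
The sterol regulatory element, to which the Srebf proteins bind, begins 137 bases before the Hmgcs1 start. Letters were searched on both strands in windows of 300 bases. Those of the sterol element, TCACNCCAC, occurred in 1 of the 27 members that the table lists (Hmgcs1) and in 1.44% of all 27025 genes listed. Sterol elements with other letters were not searched for. The CCAAT letters occurred in 22 of 27 members and 41.1% of all genes, and those of the GC box GGGCGG in 22 of 27 and 38.2%. The E-box CACGTG occurred in 6 of 27 and 8.09%. A sterol element can share its last 3 letters with an E-box, and a reverse CCAAT box its last 2 with a GC box. Such a stretch counts for both motifs, and a gene with several start sites had several windows. Elovl5, which was lower in fiber, holds 2 CCAAT boxes in the stretch shown and Lss, with the largest difference, holds 1. Entries for Fdps, Fdft1, Sqle, Scd1, Scd2 and Fads1 were not used here.

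Of the 5 regulators, Insig1 alone was called different between tissues, against 15.7% of all genes called higher and 22.2% lower. This sterol sensor of the endoplasmic reticulum, itself a classical target of the Srebf factors, was at 35.8, 38.1 and 46.8 CPM (E14.5), 43.2, 50.2 and 37.4 (E16.5), 33.1, 31.1 and 38.1 (E18.5), then 26.2, 35.0 and 47.0 (P0.5) in epithelium. In fiber it was at 121, 129 and 126 CPM (E14.5), 139, 134 and 139 (E16.5), 141, 110.1 and 127 (E18.5), then 70.1, 72.8 and 94.9 (P0.5). All fiber libraries were above all epithelium libraries, with the smallest gap at P0.5. The averaged log2 difference was 1.57 (SE 0.076, adjusted p = 1.06e-15). Its paralog Insig2 stood at 15.4 to 21.2 CPM (median 18.3) in epithelium and 25.8 to 37.1 CPM (median 33.1) in fiber, without overlap, and differed by 0.83 (SE 0.038), short of 2-fold, but by -0.37 with library size alone. Counts of Insig1 per count of Insig2 were 1.33 to 3.05 in epithelium and 2.04 to 4.68 in fiber, ranges that overlap.

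The transcription factors themselves differed little on the TMM scale, although with library size alone Srebf1 (-1.57), Srebf2 (-1.07) and Scap (-1.67) were called lower in fiber. With library size alone the median of all genes was -1.23, and 7423 of the 12427 genes tested were called lower. Srebf2, the factor tied mainly to sterol genes, was at 87.2 to 174 CPM (median 113) in epithelium and 101 to 159 CPM (median 139) in fiber, and its log2 difference was 0.14 (SE 0.042). Srebf1, tied mainly to fatty acid genes, was at 53.8 to 80.2 CPM (median 61.2) and 42.8 to 56.1 CPM (median 49.7), with a difference of -0.37 (SE 0.052). Scap was lower in all fiber libraries (29.3 to 41.2 CPM) than in all epithelium libraries (44.5 to 53.6 CPM), with a log2 difference of -0.46 (SE 0.037) that did not reach 2-fold. Within a library, Lss had 0.189 to 0.303 counts per Srebf2 count in epithelium and 0.646 to 1.20 in fiber, so the enzyme and the factor were unequally changed between tissues under any scaling. Srebf2 counts per Srebf1 count came to 1.41 to 2.48 in epithelium libraries and 2.25 to 3.08 in those of fiber.

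Fatty acid enzymes did not move together between tissues. Averaged over stages, 2 of 10 were called higher in fiber (Scd1 and Scd2) and 1 lower (Elovl5), against the same 15.7% and 22.2% of all genes. The median of the 10 was 0.21 on the log2 scale. On library size alone 0 were called higher and 5 lower, with a median of -0.996. That scaling called 587 of the 12427 genes tested higher and 7423 lower, with a median of -1.23. With TMM and by adjusted p alone 5 were higher and 4 lower, against 44.0% and 46.4% of all genes. By stage, 1, 2, 2 and 2 were called higher and 2, 1, 1 and 2 lower, from E14.5 to P0.5. The shares of all genes were 14.0%, 14.6%, 17.4% and 17.5% higher and 19.4%, 20.4%, 24.2% and 24.5% lower.

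Scd2, a stearoyl-CoA desaturase that makes oleic acid from stearic acid (chr19:44293674-44306864), was the most abundant of all 33 members per length in both tissues, at a mean of 156 CPM per kb in epithelium and 514 CPM per kb in fiber. In epithelium it was at 966, 925 and 1061 CPM (E14.5), 870.5, 1053 and 882 (E16.5), 772, 776 and 778 (E18.5), then 731, 727 and 678 (P0.5). In fiber it was at 3113, 3342 and 3109 CPM (E14.5), 2753, 3024 and 2708 (E16.5), 3084, 2541 and 2748 (E18.5), then 2453, 2441 and 2366 (P0.5). The lowest fiber library was above the highest epithelium library. Its averaged log2 difference was 1.73 (SE 0.041, adjusted p = 5.35e-22). By itself Scd2 held 46.9% to 53.0% of the counts of the 10 fatty acid enzymes in epithelium and 74.9% to 79.8% in fiber. Its neighbour on chromosome 19, Scd1 (chr19:44394455-44407879), which encodes an enzyme of the same activity, was the least abundant member per length, at 0.665 and 1.25 CPM per kb. Over the single libraries, Scd1 counts were 17 to 137. Scd1 differed between tissues by 1.04 on average (SE 0.13), just past 2-fold. The call was lost without replicate 2 of E18.5 epithelium (0.996), replicate 3 of P0.5 epithelium (0.98) or replicate 2 of E16.5 fiber (0.99), and the difference turned to -0.16 with library size alone. At E18.5, where Scd1 differed by 1.01, its call was lost without replicate 1 or 2 of E18.5 epithelium or replicate 3 of E18.5 fiber.

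Elovl5, an elongase of polyunsaturated fatty acids (chr9:77917364-77984519), went the other way. Its levels in epithelium were 36.3, 34.6 and 34.1 CPM (E14.5), 24.3, 26.3 and 28.1 (E16.5), 28.7, 29.3 and 30.5 (E18.5), then 21.2, 19.9 and 21.5 (P0.5). Those in fiber were 14.4, 13.3 and 13.6 CPM (E14.5), 13, 12.3 and 11.5 (E16.5), 11.3, 12.2 and 13.3 (E18.5), then 9.37, 8.38 and 10.6 (P0.5). All fiber libraries lay below all epithelium libraries, and the averaged log2 difference was -1.21 (SE 0.042, adjusted p = 1.20e-18). Fads2, the desaturase that acts before Elovl5 on the same fatty acids, had 69.5, 59.7 and 74.4 CPM in E14.5 epithelium and 34.5, 32.99 and 29.9 CPM in E14.5 fiber. At P0.5 it had 34.1, 36.5 and 40.8 CPM in epithelium and 15.2, 17.8 and 17.6 CPM in fiber. Fads2 was called lower in fiber at these 2 stages (log2 differences -1.06 and -1.13), with -0.52 at E16.5 and -0.85 at E18.5. Without replicate 3 of E14.5 epithelium 1 fatty acid enzyme in place of 2 was called lower at E14.5. Fads1, the desaturase that acts after Elovl5, had a difference of 0.53, under 2-fold, which turned to -0.67 with library size alone.

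Of the enzymes on the way to palmitic acid, Fasn was close to even on the TMM scale. Acly and Acaca were lower in fiber by adjusted p alone, without reaching 2-fold. Fasn, fatty acid synthase, stood at 257 to 477 CPM (median 343) in epithelium and 266 to 451 CPM (median 380.4) in fiber. Its log2 difference was 0.06 (SE 0.047, adjusted p = 0.216), so no difference was detected on that scale. With library size alone Fasn was called lower at -1.14, where the median of all genes was -1.23. Acly, which supplies cytosolic acetyl-CoA to both arms, differed by -0.62 (SE 0.037), and Acaca, acetyl-CoA carboxylase, by -0.24 (SE 0.043). Near-identical sequence of Gm5182 covers 64.3% of the Acaca transcript, so its counts are uncertain. Elovl6, which lengthens palmitic acid, differed by 0.36 and Elovl1, an elongase of saturated chains, by 0.57, and both were below 0 with library size alone.

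**Figure D3:**
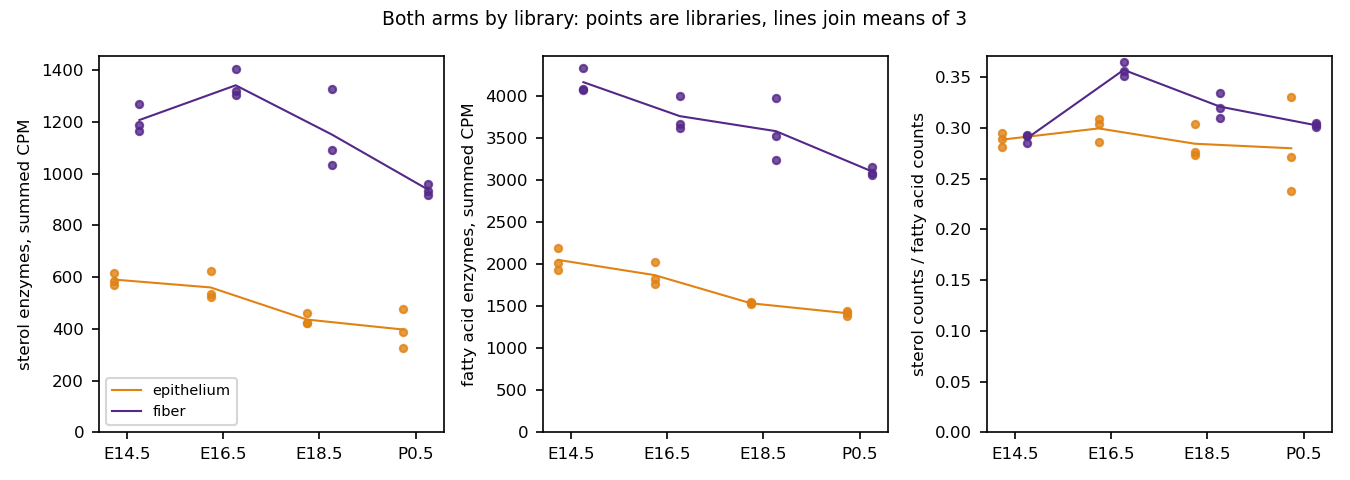
Summed CPM of the 18 sterol enzymes (left), summed CPM of the 10 fatty acid enzymes (middle) and the ratio of their counts within each library (right), by stage, with orange for epithelium, purple for fiber, points for libraries and lines joining means of 3. Both sums are higher in fiber at every stage on this scale, though as a share of all counts the fatty acid enzymes are lower in fiber at E16.5 and P0.5. Scd2 alone holds 46.9% to 53.0% of the fatty acid counts in epithelium and 74.9% to 79.8% in fiber. The ratio separates the tissues at E16.5 and E18.5 and not at E14.5 or P0.5.

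The balance of the arms within a library needs no scaling. For each count on a fatty acid enzyme there were 0.289, 0.295 and 0.281 counts on sterol enzymes in E14.5 epithelium and 0.285, 0.293 and 0.292 in E14.5 fiber. These ranges overlapped. At E16.5 the ratio was 0.303, 0.308 and 0.286 in epithelium and 0.355, 0.351 and 0.365 in fiber, without overlap. With 3 libraries a side, the smallest p of an exact permutation test is 0.1, so none is given. At E18.5 it was 0.273, 0.276 and 0.304 in epithelium and 0.334, 0.319 and 0.309 in fiber, again without overlap, and at P0.5 the fiber libraries (0.303, 0.3 and 0.304) lay inside the epithelium range (0.238, 0.272 and 0.33). Leaving out Scd2, the ratio was 0.506 to 0.643 in the 12 epithelium libraries and 1.20 to 1.49 in the 12 fiber libraries. As a share of all counts, sterol enzymes took 0.0821% to 0.0891% in epithelium and 0.0952% to 0.104% in fiber at E14.5, and 0.0795% to 0.0908% and 0.0935% to 0.0972% at E16.5, without overlap. At E18.5 and P0.5 the sterol shares of the tissues overlapped. The share of fatty acid enzymes was higher in fiber at E14.5 (0.334% to 0.356%, against 0.284% to 0.317% in epithelium). It was lower in fiber at E16.5 (0.266% to 0.270% against 0.272% to 0.294%) and P0.5 (0.176% to 0.178% against 0.217% to 0.224%), and at E18.5 the tissues overlapped.

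From E14.5 to P0.5 in epithelium, 24 of the 33 members were lower and 2 (Insig2 and Elovl1) higher with no fold minimum, and Scd1 alone was called with it. Of the 18 sterol enzymes 0 were called higher and 0 lower, against 10.1% and 3.21% of all genes. With no fold minimum 14 were lower and 0 higher, against 28.6% and 30.2% of all genes. The median was -0.48, against 0.01 for all genes, and the largest were Msmo1 (-0.90, SE 0.16), Dhcr7 (-0.72, SE 0.11) and Hmgcs1 (-0.72, SE 0.13). Msmo1, the sterol methyl oxidase, went from 37.2, 37.1 and 37.3 CPM to 13.7, 18.51 and 27.2 CPM, ranges that did not overlap. Most of the drift lay between E16.5 and E18.5, with a sterol median of -0.39 for that step, against -0.04 for the step before and 0.01 for the step after. Srebf2 stayed short of 2-fold over the whole course with -0.72 (SE 0.083), whereas Srebf1 (-0.06) and Insig1 (-0.16) were within their spread.

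Fatty acid enzymes drifted as far in epithelium. Their median was -0.60. With no fold minimum 9 of 10 were lower and 1 (Elovl1, 0.30) higher, against 28.6% and 30.2% of all genes. Behind Scd1 came Fads2 (-0.87, SE 0.089), Elovl6 (-0.81, SE 0.091) and Elovl5 (-0.75, SE 0.074), none past 2-fold. Other markers moved over the same stages. The summed level of 9 of 9 retina and ciliary margin markers was 23.6 to 56.9 CPM in E16.5 epithelium and 267 to 366 CPM in E18.5 epithelium, with no marker at 0 in a group. That of 6 of 8 pigment cell markers was 2.09 to 7.27 and 147 to 173 CPM. Their part in the drift was not tested. In the 3 P0.5 epithelium libraries the summed sterol level was 328, 386 and 478 CPM while crystallins took 2.84%, 3.97% and 4.28% of the counts, in the same order. Without replicate 3 of P0.5 epithelium 1 sterol enzyme was called lower in place of 0.

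Scd1 was the one member whose course differed between tissues by at least 2-fold on the TMM scale. In epithelium it was at 5.46, 4.90 and 8.22 CPM (E14.5), 2.17, 2.503 and 2.10 (E16.5), 1.93, 1.44 and 2.87 (E18.5), then 2.32, 3.59 and 1.54 (P0.5). In fiber it was at 6.63, 6.73 and 6.83 CPM (E14.5), 5.95, 8.65 and 5.70 (E16.5), 4.14, 3.46 and 4.84 (E18.5), then 8.23, 6.94 and 5.46 (P0.5). Epithelium libraries of E16.5 and later were all below those of E14.5, while the fiber libraries of E14.5 and P0.5 overlapped. From E14.5 to P0.5 Scd1 fell by 1.34 on the log2 scale in epithelium (SE 0.26, adjusted p = 9.76e-05) and differed by 0.02 in fiber (SE 0.24, adjusted p = 0.942). The fall lay in the first step, E14.5 to E16.5 (-1.46, SE 0.26, adjusted p = 3.16e-04), a step in which 0.821% of all genes were called lower. The test of the difference itself gave 1.37 (SE 0.35, adjusted p = 0.00331), and with library size alone it gave 0.72 (adjusted p = 0.0739). In the same step the summed level of 4 of 6 red cell markers was 181 to 286 CPM in E14.5 epithelium and 14.1 to 22.3 CPM in E16.5 epithelium. That of 5 of 7 mesenchyme markers was 95.5 to 147 CPM and 29.8 to 58.6 CPM, with no tested marker of either list at 0. Their part in the fall of Scd1 was not tested.

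In fiber the summed level of the sterol enzymes on the TMM scale was lower at P0.5 than at earlier stages. All 18 sterol enzymes had a positive log2 difference between E14.5 and E16.5, from 0.01 to 0.35 with a median of 0.22, against -0.01 over all genes, but 0 passed the test, against 1.46% of all genes. By adjusted p alone 2 did (Dhcr7 and Pmvk), against 9.25%. The summed level was 1165, 1268 and 1188 CPM at E14.5 and 1303, 1403 and 1319 CPM at E16.5. At E18.5 it was 1326, 1035 and 1092 CPM, and 1 of these libraries lay in the E16.5 range. By P0.5 it was 933, 918 and 962 CPM, below the other stages. As a share of all counts sterol enzymes took 0.0952% to 0.104% at E14.5 and 0.0935% to 0.0972% at E16.5, which overlapped. The share was 0.0799%, 0.0457% and 0.0673% at E18.5 and 0.0532% to 0.0542% at P0.5. Replicate 2 of E18.5 fiber, with 28.9% of its counts on Rn45s, thus lay below the P0.5 libraries. Over the whole course 0 sterol enzymes were called higher and 0 lower, against 6.69% and 5.24% of all genes. With no fold minimum 2 were higher (Lss and Pmvk, both at or below -0.28 with library size alone) and 7 lower, against 27.3% and 27.2%. The largest were Idi1 (-0.98, SE 0.16) and Hmgcs1 (-0.94, SE 0.13), both just short of 2-fold, and Insig1 differed by -0.66 (SE 0.15). Hmgcs1 went from 339.8, 415 and 352 CPM to 183, 188 and 206 CPM without overlap, while Fdft1 (0.06) and Dhcr7 (0.07) stayed within their spread. With library size alone 4 sterol enzymes were called lower at P0.5, as were 2168 of the 12427 genes tested. Without replicate 3 of P0.5 fiber 2 sterol enzymes were called lower.

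Among fatty acid enzymes in fiber, 0 were called over that course, against 6.69% of all genes called higher and 5.24% lower. With no fold minimum 7 of 10 were lower and 0 higher, against 27.2% and 27.3% of all genes. Fads2 (-0.94, SE 0.11) and Elovl6 (-0.82, SE 0.091) differed most. The median was -0.54. With library size alone 6 of the 10 were called lower, where the median of all genes was -0.56 and 2168 of 12427 genes were called lower. Acly, Acaca and Fasn had differences of -0.66, -0.56 and -0.53 in fiber, and -0.53, -0.60 and -0.60 in epithelium.

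**Figure D4:**
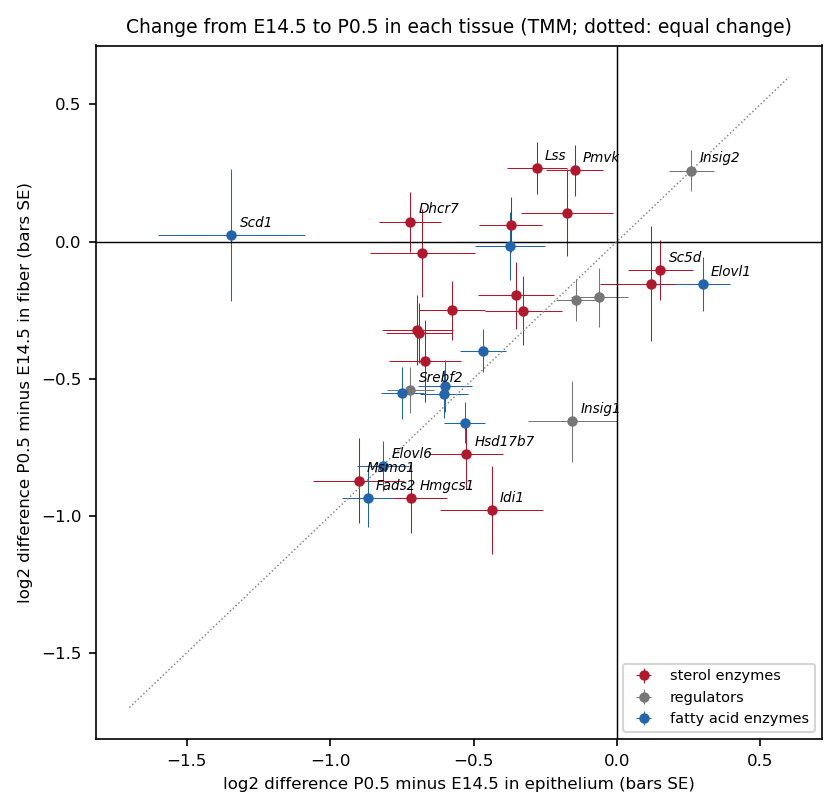
Log2 difference between P0.5 and E14.5 in epithelium (x axis) and in fiber (y axis) for the 33 members, TMM scaling, bars 1 SE, with red for sterol enzymes, grey for regulators, blue for fatty acid enzymes and a dotted line where both changes are equal. Most members lie below 0 on both axes, and Scd1 stands apart at -1.34 in epithelium and 0.02 in fiber.

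A test of whether the difference between tissues itself shifted from E14.5 to P0.5 called 1 member, Scd1. Among sterol enzymes 0 were called in either direction, against 3.77% of all genes called higher and 7.92% lower. With no fold minimum 5 sterol enzymes widened toward fiber, against 20.6% of all genes, and 0 narrowed, against 21.4%. These were Dhcr7 (0.79, SE 0.15), Fdps (0.64), Lss (0.55), Fdft1 (0.43) and Pmvk (0.41). With library size alone, where the median of all genes was -0.68, Dhcr7 was at 0.15, the other 4 were at or below 0, and Idi1 was called lower at -1.18. Dhcr7, which carries out a late reduction on the way to cholesterol, was even between tissues at E14.5, with 33.1, 29.7 and 36.1 CPM in epithelium and 29.4, 33.9 and 29.9 CPM in fiber. At P0.5 it was at 16.8, 19.5 and 23.6 CPM and 31.8, 32.6 and 33.3 CPM, which did not overlap. Insig1 (-0.50, adjusted p = 0.0644) and Idi1 (-0.54, adjusted p = 0.0752) pointed the other way without passing the test.

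**Figure D5:**
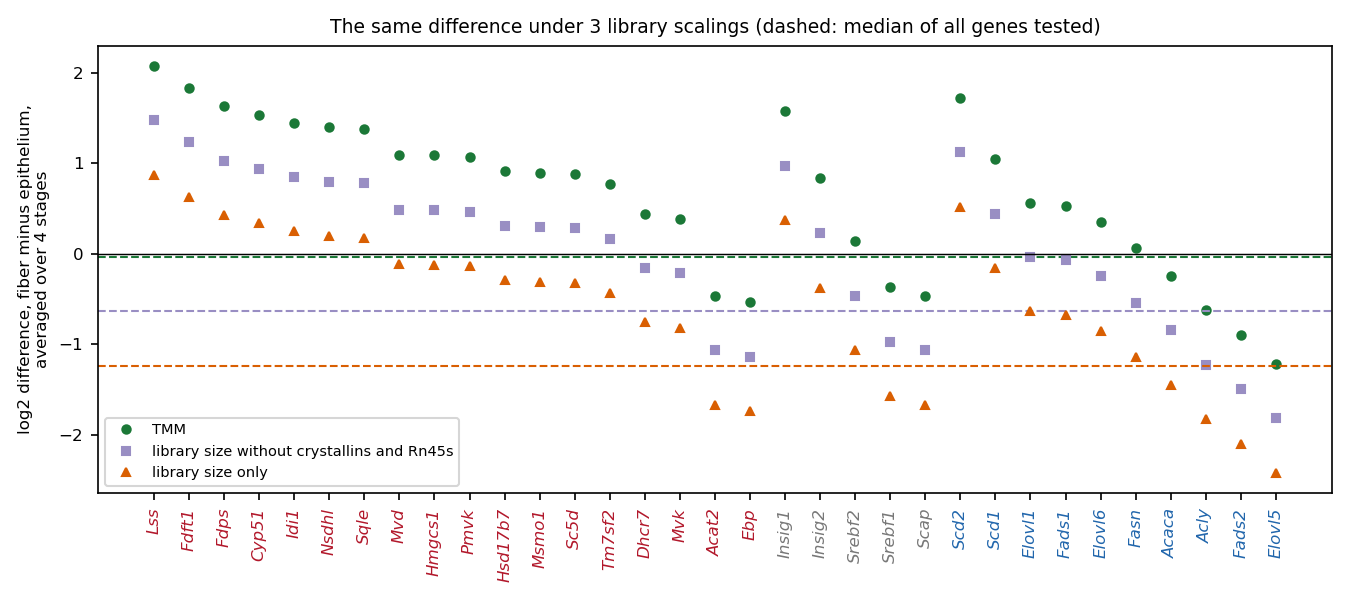
Log2 difference between fiber and epithelium averaged over 4 stages (y axis) for each member under 3 scalings, with circles for TMM, squares for library size without crystallins and Rn45s, triangles for library size alone, and dashed lines at the median of all genes tested. Each scaling moves all members by nearly the same amount, so their order holds, and 16 of 18 sterol enzymes lie above the dashed line of each scaling.

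Scaling sets the sign of many members but hardly their order. Of all genes called in the averaged comparison, 41.4% were higher in fiber with TMM, 17.5% with library size without crystallins and Rn45s and 7.33% with library size alone. With TMM 16 of 18 sterol enzymes had a positive difference between fiber and epithelium, with library size without crystallins and Rn45s 14, and with library size alone 7. Under each of these scalings 16 were above the median of all genes tested. Scaling moves all genes by nearly the same amount, so this repeat is not separate support. Calls of sterol enzymes as higher went from 10 to 3 and 0 in that order, and 2 (Acat2 and Ebp) were called lower under both alternatives. Lss, Fdft1, Fdps, Cyp51, Idi1, Nsdhl, Sqle, Insig1 and Scd2 were positive under each scaling tried, at 0.87, 0.63, 0.43, 0.34, 0.25, 0.20, 0.18, 0.37 and 0.52 with library size alone. Of the 25 members above 0 with TMM these 9 stayed so, the other 24 of the 33 were below 0 with library size alone, and Elovl5 was negative under each scaling.

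Other genes of sterol synthesis and its control were also listed. Of 17 such genes 2 were called higher in fiber and 2 lower, against 15.7% and 22.2% of all genes. Por, the reductase that serves Cyp51 and Sqle, was among the higher ones with a log2 difference of 1.21 (SE 0.043). Lbr, which reduces the same sterol bond as Tm7sf2 and also anchors chromatin, was at 77.7 ± 1.96 CPM in E14.5 epithelium and 11.5 ± 1.81 CPM in E14.5 fiber (SD, n = 3), with an averaged difference of -2.44 (SE 0.043). Mbtps1, the protease that first cuts the Srebf proteins, differed by -1.08. The median of the 17 was -0.07, near that of all genes. With library size alone 0 were called higher and 10 lower, against 587 and 7423 of the 12427 genes tested.

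For uptake, transport and storage of sterols 17 of 20 listed genes were tested, and 3 were called higher and 3 lower in fiber, shares near the 15.7% and 22.2% of all genes. The lipoprotein receptor gene Vldlr was at 87.8 ± 6.96 CPM in E14.5 epithelium and 329 ± 12.1 CPM in E14.5 fiber (SD, n = 3), an averaged difference of 1.95 (SE 0.037). Osbp, a carrier of sterols between membranes (1.82), and Soat1, which esterifies cholesterol (1.27), were also higher. The cholesterol exporter gene Abcg1 (-4.16), the receptor gene Scarb1 (-1.85) and Lipa, a lysosomal lipase (-1.07), were lower. On library size alone 0 genes of this list were called higher in fiber and 13 lower, against 587 and 7423 of the 12427 genes tested.

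Of 30 other listed genes of fatty acid supply and modification 23 were tested, with 5 called higher and 3 lower in fiber, again against 15.7% and 22.2% of all genes. Me1, malic enzyme, a source of the NADPH that synthesis uses, was at 5.43 ± 1.28 CPM in E14.5 epithelium and 17.0 ± 0.384 CPM in E14.5 fiber, and at 7.66 ± 1.56 CPM and 42.8 ± 3.05 CPM at P0.5 (SD, n = 3). Its averaged difference was 2.29 (SE 0.067), and in fiber it rose from E14.5 to P0.5 by 1.34. Dgat2, which completes triglycerides, differed by 1.74 (SE 0.11). Thrsp, linked to lipogenesis, had 0 counts in all 3 E14.5 epithelium libraries, at most 0.772 CPM in any epithelium library and 1.495 to 4.83 CPM in fiber. The acyl-CoA synthetase gene Acsl5 (-3.07), the elongase gene Elovl2 (-2.80) and Acss2, which activates acetate (-1.07), were lower. On library size alone 2 of the 23 were called higher and 16 lower, against 587 and 7423 of the 12427 genes tested. The comparisons of fiber with epithelium at single stages and averaged use the same libraries, as do the courses and the shift of the tissue difference, so their calls are not independent of each other.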

How the data were processed

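Trim Galore 0.4.1, TopHat2 2.0.13, HTSeq 0.6.1 and Cufflinks 2.2.1 are named with genome build mm10, per the submitters' processing notes. The deposited table holds raw counts per gene for 24 libraries, as whole numbers whose totals differ between libraries. How its 12611 genes were selected and which strand setting was used are not given in the sources used here.

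All 8 groups were fitted together in edgeR 4.0.16 (quasi-likelihood test, TMM scaling, low counts filtered with a minimum count of 10), with 16 residual degrees of freedom and Benjamini-Hochberg adjustment over 12427 genes. Genes were called where the adjusted p was under 0.05 and the change reached 2-fold. CPM were computed on TMM library sizes, and a gene's length is its merged exons in GENCODE M21 (GRCm38). On simulated counts 65 of 67 genes changed 2.5-fold between tissues were called. p-values rest on the spread between biological replicates within groups, estimated over all 8 groups together. The members and lists were chosen with earlier results of these data known. Values in every group are given for up to 5 called members per arm and direction with the largest averaged difference and for the regulators, and up to 3 called genes are named per other list and direction, except for some genes that are not reported here. Alternatives were other scalings, DESeq2 1.42.0, no low-count filter, no fold minimum, a replicate block, 1 tissue at a time and leaving out each library.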

Additional observations from a re-analysis of the deposited data

Results flagged for a closer look

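Scd1, a stearoyl-CoA desaturase gene, was the one member whose effect differed between the tissues by at least 2-fold in a test of the difference itself. Its change from E14.5 to P0.5 was higher in fiber than in epithelium by 1.37 on the log2 scale (SE 0.35, adjusted p = 0.00331, edgeR quasi-likelihood test). The counts behind it were 17 to 137 per library. Leaving out each library in turn gave 1.10 to 1.73, and library size alone gave 0.72 (adjusted p = 0.0739). By adjusted p alone 5 sterol enzymes and Elovl1 also passed that test.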

How the results depend on the processing

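In the averaged comparison of fiber with epithelium, library size alone gave 0 sterol enzymes higher and 2 lower, and 0 fatty acid enzymes higher and 5 lower. Library size without crystallins and Rn45s gave 3 and 2, and 1 and 3. Of all genes, library size alone called 587 higher and 7423 lower, and library size without crystallins and Rn45s 955 and 4504. With no fold minimum the counts were 16 and 2, and 5 and 4, against 44.0% higher and 46.4% lower of all genes. At single stages, from E14.5 to P0.5, the sterol enzymes higher in fiber numbered 0, 0, 1 and 0 with library size alone. They numbered 2, 4, 5 and 3 without crystallins and Rn45s, and 14, 16, 16 and 16 with no fold minimum. The fatty acid enzymes lower numbered 4, 5, 6 and 7, then 3 each, then 4 each. Of all genes, library size alone called 751, 632, 537 and 526 higher and 5147, 6733, 8557 and 8439 lower. Without crystallins and Rn45s, 979, 952, 1009 and 1054 were called higher and 3792, 4154, 4989 and 5006 lower. Shares of all genes at single stages with no fold minimum are not given here. Among called members, library size alone turned the sign of Hmgcs1 (-0.12), Pmvk (-0.14), Mvd (-0.11) and Scd1 (-0.16). From E14.5 to P0.5 in epithelium, no fold minimum gave 14 sterol enzymes lower, and 1 fatty acid enzyme higher and 9 lower. Of all genes, 28.6% were then lower and 30.2% higher. In fiber, sterol enzymes lower numbered 4 with library size alone, 3 without crystallins and Rn45s and 7 with no fold minimum (2 higher). Fatty acid enzymes lower numbered 6, 1 and 7 in that order. Of all genes, library size alone called 2168 lower and library size without crystallins and Rn45s 861. With no fold minimum 27.2% of all genes were lower and 27.3% higher. For the shift of the tissue difference, library size alone gave 1 sterol enzyme lower, 0 fatty acid enzymes higher and 1 lower. That scaling called 138 of all genes higher and 3260 lower. No fold minimum gave 5 sterol enzymes higher and 1 fatty acid enzyme lower, against 20.6% of all genes higher and 21.4% lower.

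Leaving out each library gave 10 sterol enzymes and 1 to 2 fatty acid enzymes higher in fiber (averaged), 0 to 1 sterol enzymes lower with stage in epithelium and 0 to 2 in fiber. DESeq2, the fit without a low-count filter and the fits of 1 tissue kept every count within 1.5 times in the averaged, stage-course and shift comparisons. The sample labels do not say whether same-numbered samples of the tissues came from the same animals. Deviations of same-numbered samples correlated at -0.07 to 0.22 over 12 pairs, 3 of them over 0.1. Of the 12 epithelium samples, 6 correlated best with the fiber sample of their own number. These values do not settle whether replicate numbers pair samples. With the replicate block 10 sterol enzymes were again higher in fiber. At E18.5 the block and DESeq2 each left 1 fatty acid enzyme higher in place of 2. Depth limits Scd1 most, since its counts were as low as 17.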
